A study of Mus musculus with 12 samples.

Results

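The clustered protocadherins are 3 families of cell-surface adhesion genes, alpha, beta and gamma, that lie one after another on mouse chromosome 18. They were followed here across 12 RNA-seq libraries of 2 brain regions. Members were taken by name from the deposited count table, with a minimum of 10 counts in at least 3 of the 12 libraries. Of 54429 entries in that table, 57 had a matching name and 56 passed the minimum: 13 alpha, 22 beta and 21 gamma genes. The entry just outside was Pcdhga10, with 0 counts in every library. The entry just inside was Pcdha4, with 6 to 29 counts per library.

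Each alpha or gamma transcript starts at its own variable exon, which encodes the extracellular part, and is spliced to constant exons that all genes of its cluster use. Beta genes each consist of a single coding exon and have no constant exons. A neuron switches on only a few of these promoters, partly by chance and with the help of the DNA-binding protein CTCF and the cohesin complex, and the resulting set of proteins lets its branches recognise themselves and other cells. The 5 C-type members, Pcdhac1, Pcdhac2, Pcdhgc3, Pcdhgc4 and Pcdhgc5, sit next to the constant exons and are regulated more by cell type than by chance. Pcdhac2 is known for the spacing of serotonin axons, and Pcdhgc4 for the survival of developing neurons.

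The libraries were made from total RNA of brain punches of C57BL/6 mice, after depletion of ribosomal RNA. The 4 groups of 3 libraries were the BLA (basolateral amygdala) of males and the VTA (ventral tegmental area) of females, each from mice socially isolated early in life or housed in groups. Sex comes from the design text, and region and sex cannot be told apart. The labels give no age, no length of isolation and no word on pooling, so a p-value here reflects only how far libraries of a group spread, which may be technical. Summed markers of dopamine neurons (8 genes, none at 0 throughout the 12 libraries) separated the regions. They lay at 65.1 to 81.4 CPM in BLA and 618.3 to 1327 CPM in VTA libraries. Most of the BLA sum was Nr4a2, which overlapped between regions, at 45.8 to 63.2 CPM in BLA and 23.6 to 55.4 CPM in VTA libraries. All listed markers except Nr4a2 were higher in every VTA than in every BLA library, and Foxa1 was at 0 CPM in the BLA. CPM here are counts scaled to a common library size, with TMM factors over all 12 libraries.

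Library totals ran from 28278708 to 69276892 counts, of which the members took 0.0434% to 0.0707%. In 3 BLA libraries (isolated 3, group-housed 1 and group-housed 2), 3 loci that collect reads of ribosomal RNA held 18.6%, 28.6% and 41.8% of the counts, against at most 1.57% elsewhere. In the VTA, isolated libraries 1 and 3 stood apart by choroid plexus markers, summing to 249.5 and 3377 CPM against at most 32.6 CPM in the other 4. These 5 libraries are called uneven below. Group-housed VTA library 3, not counted among them, stood apart by serotonin neuron markers (5 genes, none at 0 throughout the 12 libraries). They summed to 145.8 CPM there, against at most 11.7 CPM in the other VTA libraries. Isolated VTA library 2, also not among the 5, had the lowest GABA neuron sum (3 genes) of the VTA. It was 215 CPM, against 393 to 584 CPM in the other VTA libraries.

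How the counts were made decides which part of each gene was measured. The submitters name HTSeq for the counting, without its settings. Of 151 annotated genes whose exons are all covered by genes of the opposite strand, but that have at least 500 exon bases free on their own strand, 96.7% held 0 counts throughout. Among 38274 genes with at least 500 bases free on either strand that share was 17.5%. The counts thus behaved as if strand was not used and as if reads in shared bases were dropped. Pcdhga10 has 2613 exon bases free on its own strand and 0 free on either strand.

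All 13 alpha and all 21 gamma members share exon bases with another gene of their cluster, so their counts reflect mainly the variable exon. Of the 22 beta genes only Pcdhb21 and Pcdhb22 do. Exon bases shared with no other gene on either strand, called free bases below, ran from 404 to 3767 in alpha, from 1107 to 8695 in beta and from 1256 to 4614 in gamma members. Beta genes resemble each other in sequence: a median of 4.46% of their 50-base words, and at most 11.99% (Pcdhb12), also occur in another gene, so reads there may be placed on either. The variable exons of alpha and gamma genes were not checked for this. In the mm10 annotation the alpha cluster spans chr18:36930184-37187661, the beta cluster chr18:37264938-37524479 and the gamma cluster chr18:37661793-37841873, all on the plus strand.

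To compare levels between genes, the mean CPM over the 12 libraries was divided by the kilobases of free exon. The highest alpha member was Pcdhac2, at 12.9 CPM per free kb, and the lowest Pcdha1, at 0.478, around a cluster median of 1.89. In the gamma cluster Pcdhgc5 stood highest at 14.1 CPM per free kb and Pcdhgb8, annotated as a polymorphic pseudogene, lowest at 1.74, around a median of 3.91. A C-type member thus led both clusters that have one. The beta genes ran from 0.325 CPM per free kb for Pcdhb1 to 5.10 for Pcdhb17, around a median of 2.19. Divided by full exon length instead, Pcdhac2 had 6.61 CPM per kb and still led its cluster, while the lowest alpha member became Pcdha4, at 0.0539 CPM per kb.

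Along the beta cluster, genes further downstream tended to have higher levels. Across the 22 genes, the start coordinate on the chromosome and mean CPM per free kb had a Pearson r of 0.69 and a Spearman rho of 0.72. Genes are not independent replicates, and these values share the same libraries. The first 6 genes, Pcdhb1 to Pcdhb6, had regional means of at most 1.55 CPM per free kb, whereas those of Pcdhb9, Pcdhb16 and Pcdhb17 were at least 3.38. The climb was not steady. Means in BLA and VTA were 1.46 and 1.73 for Pcdhb8, 2.12 and 0.968 for Pcdhb13, and 2.13 and 1.71 for Pcdhb21. Among the 11 alpha genes without the C-types the relation was weaker (r 0.52, rho 0.55), and among the 18 gamma genes without the C-types it was near 0 (r -0.03, rho -0.06).

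**Figure D1:**
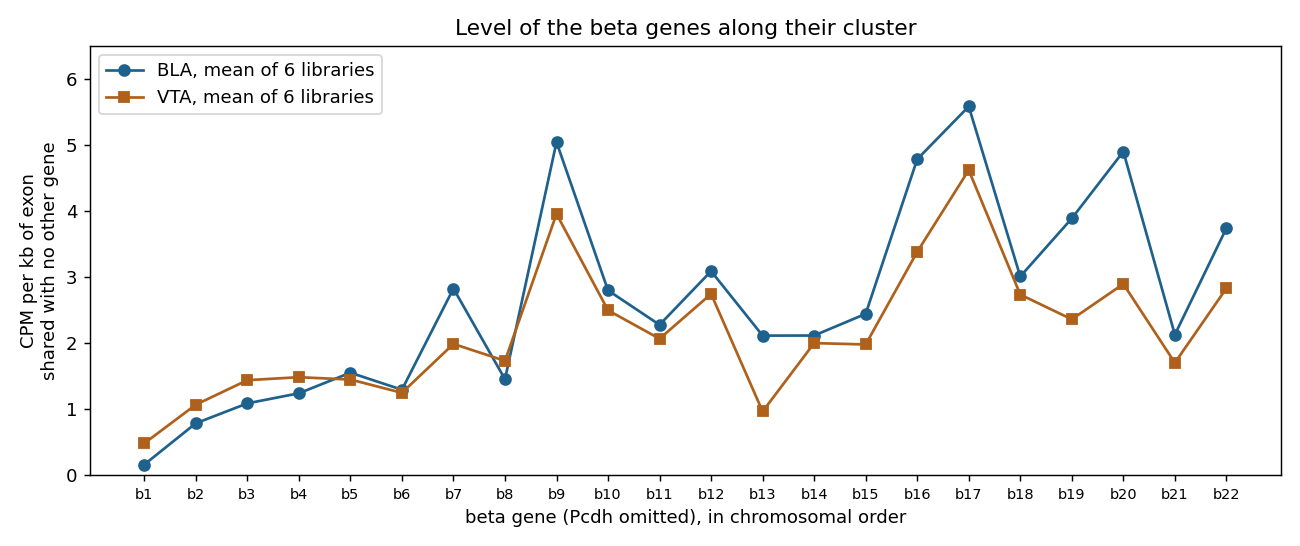
Mean CPM per kb of exon shared with no other gene for the 22 beta genes in chromosomal order, with the mean of the 6 BLA libraries (circles) and of the 6 VTA libraries (squares). Levels climb unevenly from Pcdhb1 at the left. The BLA line lies above the VTA line for every gene from Pcdhb9 on, while the order is the other way for Pcdhb1 to Pcdhb4.

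The comparison of VTA with BLA libraries asked where the clusters are used, with the limit that sex changes too. Every cluster had a lower summed level in the VTA, and no library of one region reached the range of the other. The alpha cluster summed to 59.2 ± 4.05 CPM in VTA and 112 ± 9.11 CPM in BLA libraries (SD, n = 6 each), a ratio of 0.530. The beta cluster summed to 201 ± 11.6 CPM in VTA and 250.2 ± 8.97 CPM in BLA libraries (SD, n = 6 each), a ratio of 0.803. For the gamma cluster the sums were 199 ± 16.5 CPM and 342 ± 24.5 CPM (SD, n = 6 each), a ratio of 0.582. In the alpha and gamma clusters a single gene held a large part of the gap. Without Pcdhac2 the alpha ratio was 0.664, and without Pcdhgc5 the gamma ratio was 0.821, close to that of the beta cluster.

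**Figure D2:**
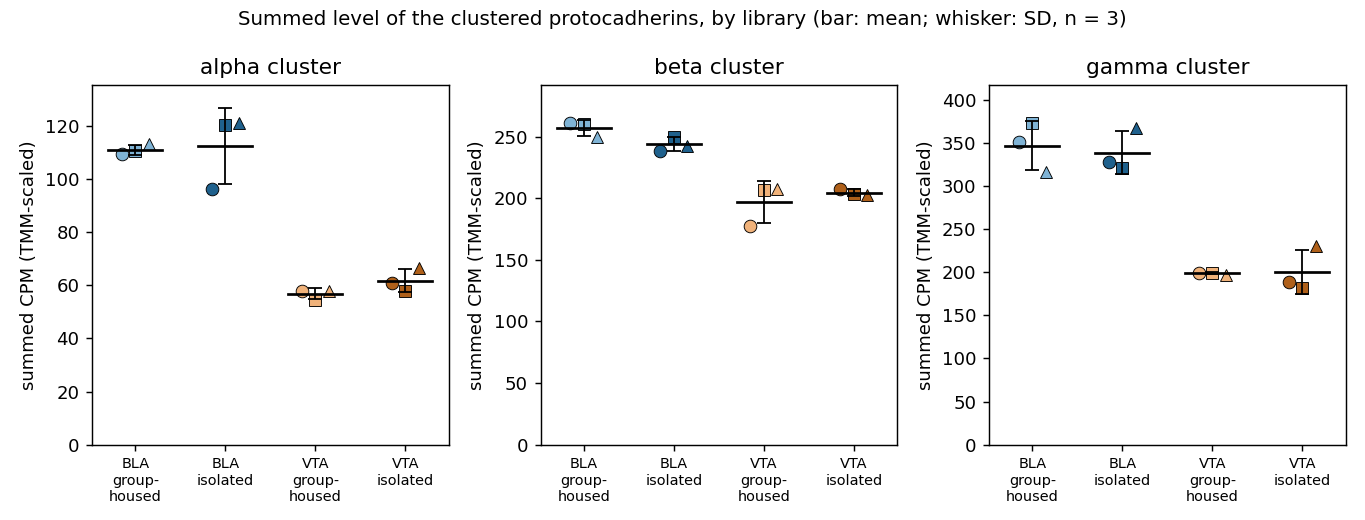
Summed TMM-scaled CPM of the alpha, beta and gamma members in each of the 12 libraries, by group (points: libraries; bar: mean; whisker: SD, n = 3). VTA libraries lie below all BLA libraries in each cluster, and within a region the ranges of the isolated and group-housed libraries overlap in each cluster.

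Gene by gene, edgeR's quasi-likelihood test over all 12 libraries, with Benjamini-Hochberg adjustment over all 25009 genes tested, called 32 of the 56 members at an adjusted p below 0.05. All 56 passed the filter on low counts. Of these 32, 29 were lower and 3 higher in VTA than in BLA libraries. That is 57.1% of the members, against 47.7% of all genes tested. By direction, 51.8% of members were called lower, against 23.7% of all genes, and 5.36% were called higher, against 24.1% of all genes. At an unadjusted p below 0.05 there were 37 members (66.1%, against 53.5% of all genes). The median log2 fold change of the members was -0.33, beside 0.02 over all genes, and 7 members had a value above 0, as did 51.5% of all genes. The ranges of the 6 VTA and the 6 BLA libraries did not overlap for 22 members, 20 lower and 2 higher, or 39.3% against 27.1% of all genes. Scaling by library totals alone, which leaves in the ribosomal RNA reads, moved the median of all genes by 0.42 and left 6 members called lower and 6 higher.

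Other features of the tissue moved with region. Summed markers of cortical and basolateral glutamatergic neurons (8 genes, none at 0 throughout the 12 libraries) lay at 803 to 1680 CPM in BLA and 88.7 to 489 CPM in VTA libraries. In VTA libraries other than isolated library 3, Lmo3 (39.1 to 63.8 CPM) and Nrn1 (34.1 to 68.0 CPM) made up most of the sum. Oligodendrocyte markers (8 genes, none at 0) lay at 2467 to 5007 CPM in BLA and 6185 to 12271 CPM in VTA libraries. The part of this cell makeup in the members' differences was not tested. In punches of whole tissue, fewer cells of a type and less RNA per cell cannot be told apart.

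Among the C-type members, Pcdhgc5 had the lowest fold change of all 56. It measured 98.2, 108 and 135 CPM in the isolated BLA libraries 1 to 3 and 113, 133 and 112 CPM in the group-housed ones. In the VTA it measured 9.53, 8.60 and 37.8 CPM in the isolated libraries 1 to 3 and 9.34, 9.09 and 7.21 CPM in the group-housed ones. All BLA libraries were higher than all VTA libraries, and isolated VTA library 3 stood above the other 5 VTA libraries. The log2 fold change was -3.20 (SE 0.39, adjusted p = 0.000153 by edgeR), a 9.21-fold lower level in the VTA. Without that library it was -3.73, and in the 6 isolated libraries alone it was -2.61 with an adjusted p of 0.0548. Isolated VTA library 3 also had the highest glutamatergic sum of the VTA libraries, 489 CPM, and the highest choroid plexus sum.

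Its share of the cluster moved with its level. Pcdhgc5 made up 29.9% to 36.7% of the gamma CPM in BLA libraries (median 34.6%) and 3.66% to 16.4% in VTA libraries (median 4.71%). These shares are of counts that fall on variable exons, not of whole transcripts.

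Its neighbour Pcdhgc4 went the other way. It measured 12.3, 14.98 and 14.2 CPM in the isolated and 14.6, 11.1 and 14.6 CPM in the group-housed BLA libraries. In the VTA the values were 29.1, 34.2 and 19.6 CPM in the isolated and 30.5, 28.3 and 25.99 CPM in the group-housed libraries. The regions did not overlap, and the VTA value nearest to the BLA was again that of isolated library 3. Pcdhgc4 rose by a log2 fold change of 1.03 (SE 0.12, adjusted p = 8.89e-06 by edgeR), 2.04-fold. Its share of the gamma CPM was 2.99% to 4.68% in BLA and 8.51% to 18.8% in VTA libraries.

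Pcdhac2, the alpha member next to the constant exons, measured 43.5, 60.5 and 62.2 CPM in the isolated and 51.1, 59.6 and 57.8 CPM in the group-housed BLA libraries. In the VTA it measured 20.3, 20.2 and 31.8 CPM in the isolated and 18.9, 19.9 and 21.3 CPM in the group-housed libraries. No VTA library reached the lowest BLA value, and isolated VTA library 3 was once more the nearest to it. The log2 fold change was -1.34 (SE 0.12, adjusted p = 1.55e-06 by edgeR). Pcdhac2 made up 45.3% to 53.9% of the alpha CPM in BLA and 32.5% to 47.9% in VTA libraries. Within the BLA, isolated library 1 had the lowest values of both Pcdhac2 and Pcdhgc5, and also the lowest glutamatergic sum (803 CPM) and the highest striatal projection neuron sum (2196 CPM).

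The other two C-type members differed less. Pcdhac1 measured 6.96, 7.93 and 7.05 CPM in the isolated and 7.24, 6.48 and 6.32 CPM in the group-housed BLA libraries, against 4.25 to 6.17 CPM in the VTA libraries. The groups were separate by a narrow gap, with a log2 fold change of -0.36 (SE 0.11, adjusted p = 0.0109 by edgeR). The call was lost in the group-housed libraries alone (adjusted p = 0.0881), in the isolated libraries alone (adjusted p = 0.112) and without the 5 uneven libraries (adjusted p = 0.254). Pcdhgc3 lay at 12.7 to 17.8 CPM in BLA and 12.1 to 14.1 CPM in VTA libraries, overlapping, with a log2 fold change of -0.19 (SE 0.09, adjusted p = 0.0915). Without isolated BLA library 2, Pcdhgc3 was called, at -0.25 with an adjusted p of 0.0346.

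**Figure D3:**
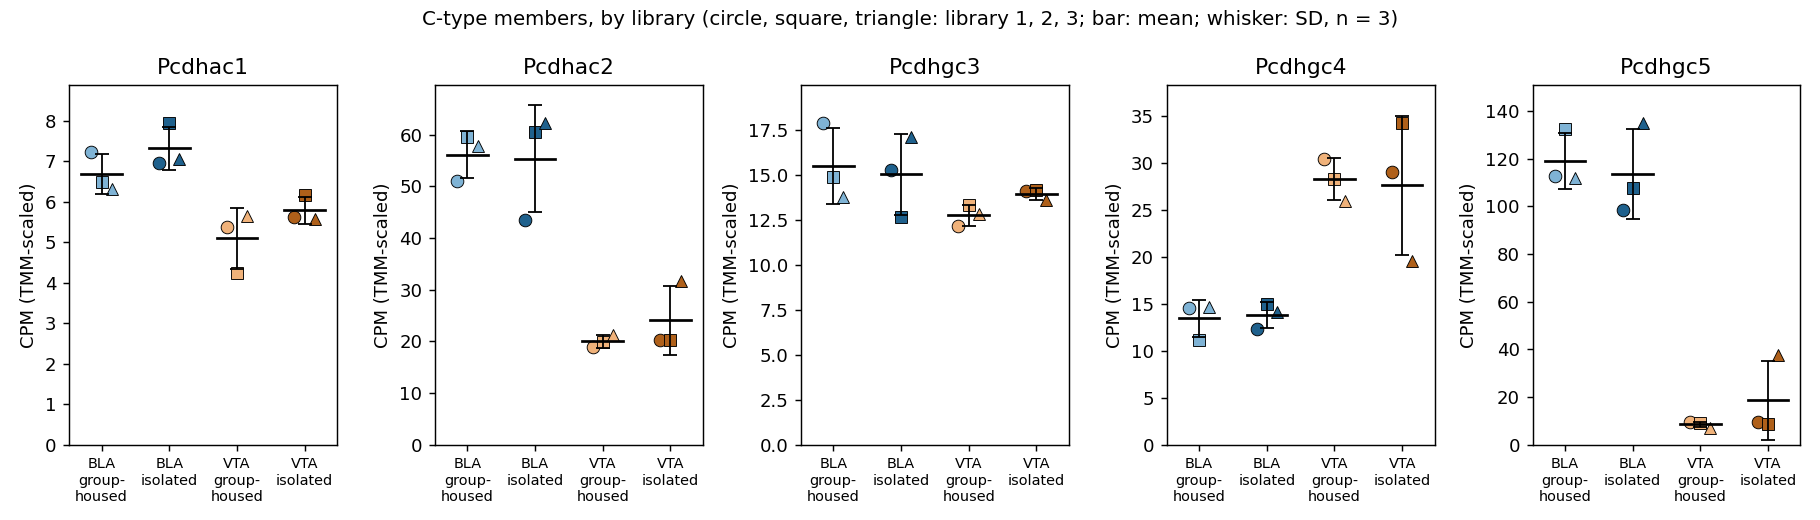
TMM-scaled CPM of the 5 C-type members in each library, by group (circle, square, triangle: library 1, 2, 3; bar: mean; whisker: SD, n = 3). Pcdhgc5 and Pcdhac2 are high in BLA and low in VTA libraries, Pcdhgc4 is the reverse, and the triangle of isolated VTA lies on the BLA side of its group for all 3.

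In the alpha cluster, 9 of 13 members fell in the VTA (69.2%, against 23.7% of all genes) and none rose (24.1% of all genes did). The variable-exon gene Pcdha12 had the lowest p of all members. It measured 4.81, 7.63 and 7.56 CPM in the isolated and 7.73, 7.93 and 8.05 CPM in the group-housed BLA libraries, against 2.24 to 3.31 CPM in the 6 VTA libraries. These ranges were separate, and the log2 fold change was -1.48 (SE 0.14, adjusted p = 1.06e-06). Pcdha5 was similar, at 5.70 to 6.48 CPM in BLA and 2.46 to 3.11 CPM in VTA libraries (log2 fold change -1.15, SE 0.11, adjusted p = 1.33e-06). Of the 11 alpha genes without the C-types, 7 were called lower, and the remaining 4, Pcdha1, Pcdha2, Pcdha4 and Pcdha8, had values from -0.38 to -0.15.

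In the beta cluster, 9 of 22 genes fell (40.9%, against 23.7% of all genes) and 2 rose (9.09%, against 24.1%). Pcdhb13 measured 8.99, 7.19 and 7.53 CPM in the isolated and 7.79, 8.54 and 7.06 CPM in the group-housed BLA libraries, against 3.03 to 3.92 CPM in VTA libraries. Every VTA library was below every BLA library, with a log2 fold change of -1.12 (SE 0.12, adjusted p = 1.99e-06). Pcdhb19 lay at 25.1 to 29.8 CPM in BLA and 14.95 to 18.1 CPM in VTA libraries (log2 fold change -0.72, SE 0.07, adjusted p = 1.21e-06). Pcdhb20, its neighbour downstream, lay at 16.2 to 19.2 CPM in BLA and 8.12 to 11.9 CPM in VTA libraries (log2 fold change -0.76, SE 0.08, adjusted p = 2.88e-06). Both of these neighbours were separate between regions.

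The beta genes that rose stood at the start of the cluster. Pcdhb1, the first and least abundant beta gene, measured 0.284, 0.424 and 0.547 CPM in the isolated and 0.331, 0.484 and 0.478 CPM in the group-housed BLA libraries. In the VTA it measured 1.02, 1.32 and 1.07 CPM in the isolated and 1.14, 2.04 and 0.964 CPM in the group-housed libraries. The groups did not overlap, although counts per library were only 8 to 120, and the log2 fold change was 1.57 (SE 0.26, adjusted p = 0.000149). Pcdhb3 lay at 2.99 to 5.22 CPM in BLA and 4.89 to 5.97 CPM in VTA libraries, overlapping (log2 fold change 0.41, SE 0.14, adjusted p = 0.0262). Its call was lost when any of 6 libraries was left out (isolated BLA 1 or 2, group-housed BLA 1 or 3, isolated VTA 2 or group-housed VTA 2), with adjusted p from 0.0526 to 0.0700. It was also lost in the group-housed libraries alone (adjusted p = 0.0908) and in the isolated ones alone (adjusted p = 0.188).

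Position and regional difference went together in the beta cluster. Across the 22 genes the log2 fold change of VTA against BLA had an r of -0.71 and a rho of -0.71 with the start coordinate. Later genes tended to be lower in the VTA. For the 11 alpha genes without C-types the values were r -0.56 and rho -0.68, and for the 18 gamma genes r 0.36 and rho 0.27. These are descriptions across genes of the same libraries.

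**Figure D4:**
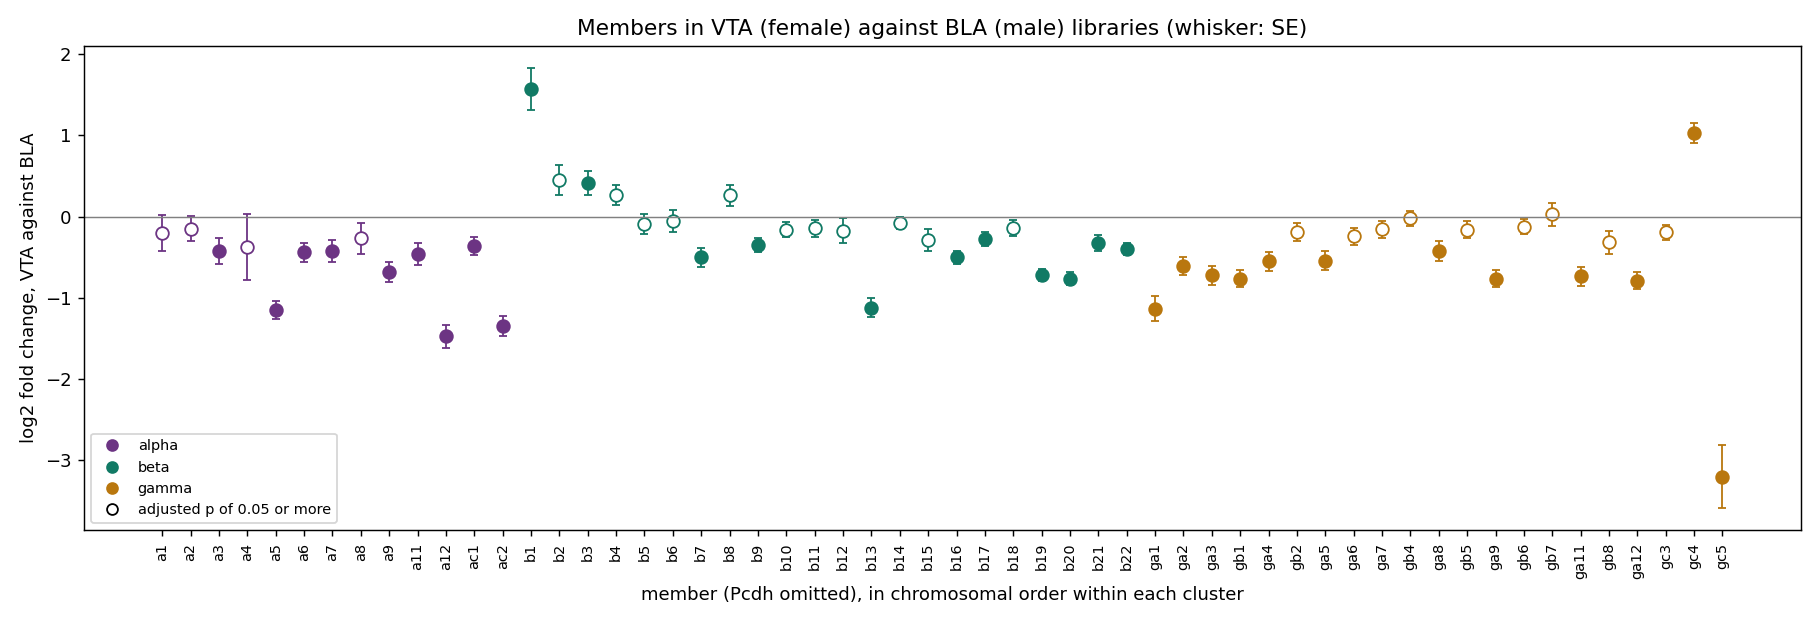
Log2 fold change of VTA (female) against BLA (male) libraries for each of the 56 members in chromosomal order within its cluster, with SE; filled points have an adjusted p below 0.05. Most filled points lie below 0, Pcdhb1, Pcdhb3 and Pcdhgc4 are the filled points above it, and Pcdhgc5 lies lowest, at -3.20.

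In the gamma cluster the A and B genes, named for sequence similarity and interspersed along the chromosome, had separate counts of calls. Of 11 gamma A genes, 9 were called lower in the VTA, with a median log2 fold change of -0.61. Of 7 gamma B genes, 1 was called lower (Pcdhgb1, log2 fold change -0.76), with a median of -0.16. These are 81.8% of the A and 14.3% of the B genes, against 23.7% of all genes. With 1 call among 7 genes, the B share lay near that background. Whether the A and B genes differ was not tested. Pcdhga1 had the largest gamma A value, at 6.35 to 11.7 CPM in BLA and 2.90 to 5.03 CPM in VTA libraries, with a log2 fold change of -1.13 (SE 0.15, adjusted p = 2.09e-05).

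Most calls between regions were lower in the VTA under either housing. In the 6 group-housed libraries alone 22 members were called lower and 2 higher. In the 6 isolated ones alone, a fit added after the data were seen, 20 were lower and 2 higher. Over all genes, the group-housed fit called 5010 of 23535 lower and 4467 higher, and the isolated fit 3347 of 23280 lower and 3911 higher. Called in both were 20 members, of 24 and 22. The gamma B genes did not keep 1 pattern: in the group-housed libraries alone 5 of 7 had positive values, with a median of 0.01 and 1 called lower, and in the isolated ones alone 7 of 7 were negative, with a median of -0.39 and 3 called lower. Without the 5 uneven libraries, 48 members had values below 0 and 8 above, with a median of -0.30, beside 0.06 over all genes. That fit leaves 1 group-housed BLA and 1 isolated VTA library, assumed to vary like the other groups. The group-housed VTA libraries had glutamatergic sums of 88.7 to 89.1 CPM and choroid plexus sums of at most 32.6 CPM.

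The next comparison, isolated against group-housed males in the BLA, called 0 of 56 members with edgeR, as for all 22110 genes tested (0%). DESeq2 and limma voom also called 0 members. At an unadjusted p below 0.05 edgeR had 0 members against 1.99% of all genes, DESeq2 had 3 and limma voom 2. Of all 22110 genes, DESeq2 had 442 and limma voom 595 below that value. The median log2 fold change was -0.04, with 21 members above and 35 below 0, beside a median of 0.0028 over all genes, 50.8% of which lay above 0. Groups did not overlap for 4 members (7.14%, against 7.11% of all genes). Higher in isolated libraries was Pcdha6 (background 4.15%), and lower were Pcdha12, Pcdhb4 and Pcdhb8 (background 2.96%).

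The ranges of the cluster sums overlapped between housing groups in the BLA. Alpha members summed to 112 ± 14.2 CPM in isolated and 111 ± 1.98 CPM in group-housed libraries (SD, n = 3 each). Beta members summed to 244 ± 5.64 and 257 ± 6.30 CPM, and gamma members to 339 ± 25.2 and 346 ± 28.5 CPM. The log2 ratios were 0.02, -0.08 and -0.03, beside SDs within groups, pooled over the 4 groups, of 0.11, 0.07 and 0.12. For beta the gap in the BLA was larger than the SD of either group. With library totals alone as scaling, where the median of all genes stood at 0.31, they were 0.33, 0.25 and 0.30.

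The smallest p in the BLA belonged to Pcdhb8, at 3.60, 4.86 and 4.62 CPM in isolated and 5.44, 6.42 and 5.51 CPM in group-housed libraries. The groups were separate, with all isolated libraries below the group-housed ones, a log2 fold change of -0.40 (SE 0.18) and an adjusted p of 1.00 by edgeR. Pcdhgb8 (log2 fold change 0.49, SE 0.23), Pcdhga1 (-0.41, SE 0.19) and Pcdhgb5 (0.34, SE 0.17) followed, overlapping between groups and with adjusted p of 1.00 each. C-type members had values from -0.06 (Pcdhgc5) to 0.14 (Pcdhac1).

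In the VTA of females, isolation against group housing also called 0 of 56 members with edgeR, beside 0.00415% of 24082 genes (1 gene). limma voom called 0 members and DESeq2 called 1, Pcdhgb5. Of all 24082 genes, DESeq2 called 148 higher and 338 lower, and limma voom called 2 higher and 0 lower. At an unadjusted p below 0.05 edgeR had 4 members, 7.14% against 18.3% of all genes. The median log2 fold change was -0.03, with 26 members above and 30 below 0, while 49.8% of all genes lay above 0. Groups did not overlap for 7 members, 12.5% against 29.1% of all genes. Lower in isolated libraries were 5 gamma B genes (8.93% of members, against 11.6% of all genes), and higher were Pcdhb10 and Pcdhgc3 (background 17.4%).

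Sums in the VTA were 61.6 ± 4.36 CPM in isolated and 56.7 ± 2.03 CPM in group-housed libraries for alpha (SD, n = 3 each). For beta they were 205 ± 2.66 and 197 ± 17.0 CPM, and for gamma 200.2 ± 26.01 and 199 ± 1.21 CPM. The log2 ratios were 0.12, 0.05 and 0.01, and the ranges of the 2 groups overlapped in each cluster. For alpha the gap was larger than the SD of either group. With upper-quartile scaling, which moved the median of all genes by -0.07, they were -0.01, -0.07 and -0.12.

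All 4 members with an unadjusted p below 0.05 in the VTA were gamma B genes. Pcdhgb5 measured 6.66, 7.03 and 7.09 CPM in isolated and 11.5, 10.6 and 9.32 CPM in group-housed VTA libraries. The groups were well separated, each isolated library lying below every group-housed one, and the log2 fold change was -0.65 (SE 0.13), with an adjusted p of 0.236 by edgeR. DESeq2 called it with an adjusted p of 0.00394, limma voom did not (adjusted p = 0.0772), and edgeR did so without isolated library 2 (adjusted p = 0.0487). Calls rose over all genes in that last fit, with 370 of 24955 higher and 830 lower, against 1 gene with all 6 VTA libraries. With single libraries left out the adjusted p ranged up to 0.516. Isolated library 2, the lowest of the VTA in GABA neuron markers, had a log2 fold change of -0.60 alone against the 3 group-housed libraries. In that fit only the group-housed libraries give the spread, and the lone library is assumed to vary like them.

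The other 3 were weaker. Pcdhgb4 measured 6.55, 8.33 and 8.02 CPM in isolated and 9.37, 9.99 and 11.3 CPM in group-housed VTA libraries. Its groups were separate too (log2 fold change -0.47, SE 0.15, adjusted p = 0.236). Pcdhgb1 (-0.37, SE 0.15, adjusted p = 0.264) and Pcdhgb7 (-0.35, SE 0.15, adjusted p = 0.272) were lower in 3 of 3 isolated libraries than in any group-housed one. Of the 7 gamma B genes, 7 had negative values in the VTA, with a median of -0.35, against 5 of 11 positive values and a median of -0.0066 in gamma A. The count of 7 negative values held under each of the alternatives run for the VTA, with medians from -0.46 to -0.29. It was noticed after the values were seen, and the members share libraries. Their counts reflect mainly variable exons, whose sequence sharing with other genes was not checked.

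In the BLA the gamma B values were not negative as a rule: 6 of 7 were positive, with a median of 0.08, and 4 to 7 were positive across the alternatives run. The difference between the 2 responses, VTA minus BLA, was tested over all 12 libraries. edgeR called 0 members (0% of 25009 genes) and limma voom 0, while DESeq2 called Pcdhgb5. Of all 25009 genes, DESeq2 called 29 higher and 109 lower. At an unadjusted p below 0.05 edgeR had 5 members, 8.93% against 14.9% of all genes. The difference was above 0 for 30 members and for 55.3% of all genes. Pcdhgb5 had the smallest p, with a difference of -0.93 on the log2 scale (SE 0.22) and an adjusted p of 0.303 by edgeR, or 0.0183 by DESeq2. Its BLA values, 12.4, 8.53 and 11.1 CPM in isolated and 9.50, 7.87 and 7.98 CPM in group-housed libraries, overlapped between groups. Pcdhgb4 (-0.49), Pcdhga1 (0.73), Pcdhb8 (0.58) and Pcdhgb8 (-0.64) were the other 4, with adjusted p from 0.304 to 0.327.

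**Figure D5:**
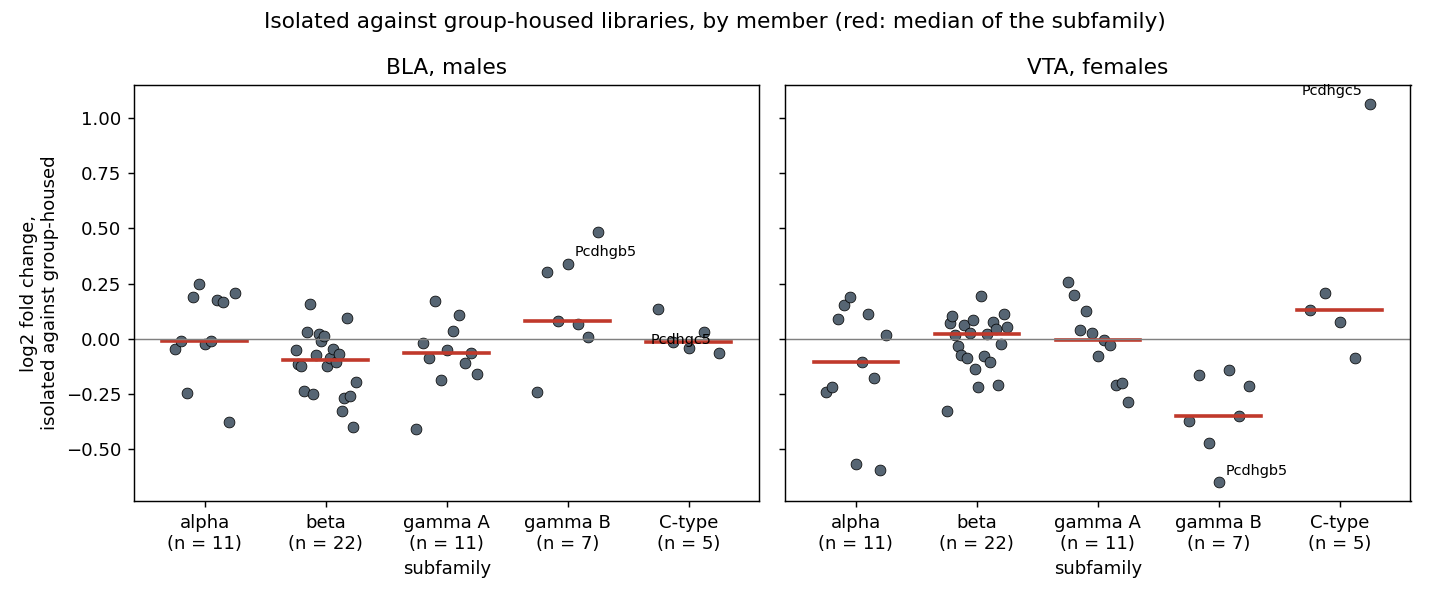
Log2 fold change of isolated against group-housed libraries for each member, by subfamily, in the BLA (left) and the VTA (right); red bars are subfamily medians, and alpha stands for the 11 alpha genes without C-types. The 7 gamma B points all lie below 0 in the VTA, and the single high point in the VTA is Pcdhgc5, at 1.06.

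The largest VTA value was that of Pcdhgc5, a log2 fold change of 1.06 (SE 0.65, adjusted p = 0.412), and it rested on 1 library. Without isolated library 3 it was 0.04, and with isolated library 2 alone in its group it was -0.02. Pcdhac2 had 0.21 (SE 0.17, adjusted p = 0.515), or -0.03 without isolated library 3. That library had 232 CPM of Slc17a7, which loads glutamate into vesicles in cortex and amygdala, against 23.8 and 8.19 CPM in isolated libraries 1 and 2 and 2.88 to 5.20 CPM in the group-housed ones. The part of these cells in the values was not tested. Pcdhac1 (0.13), Pcdhgc3 (0.07) and Pcdhgc4 (-0.09) had adjusted p of 0.686 or more.

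Genes that act on or with the clustered protocadherins were taken from 3 lists, chosen by function. The first held regulators of the clusters: CTCF, cohesin and its loaders, and chromatin factors. Of its 13 tested genes 3 rose and 3 fell between VTA and BLA, near the background of 24.1% higher and 23.7% lower over all genes, with a median log2 fold change of -0.11 beside 0.02 over all genes. Rest, a repressor of neuronal genes, rose by 0.60 (SE 0.09, adjusted p = 4.13e-05), with group means of 10.1 and 11.4 CPM in isolated and group-housed BLA and 15.7 and 16.8 CPM in isolated and group-housed VTA. Stag2, a cohesin subunit (0.22), and Dnmt3b, a DNA methyltransferase that acts on these promoters (0.65, with group means of 0.532 to 1.16 CPM), also rose. Ctcf itself fell by 0.22 (SE 0.06, adjusted p = 0.00704), as did Nipbl, the cohesin loader (-0.28), and Cxxc1, a CpG-binding protein (-0.31).

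With isolation, edgeR called 0 of the 13 regulators in either region. At an unadjusted p below 0.05 there were 0 in the BLA and 1 in the VTA, Ctcf, at 68.4 CPM in isolated and 58.2 CPM in group-housed libraries (log2 fold change 0.17, SE 0.07, adjusted p = 0.268). Rest (-0.17) and Dnmt3b (-0.50) had the smallest p in the BLA, with adjusted p of 1.00.

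The second list held 21 partners and signalling genes, such as the WAVE complex that builds branched actin, focal adhesion kinases and neuroligins. Between VTA and BLA 14 fell and 2 rose (23.7% and 24.1% of all genes), with a median log2 fold change of -0.34. Cyfip2, a WAVE complex subunit, fell by 1.26 (SE 0.10, adjusted p = 1.55e-07). Nlgn2, an adhesion protein of inhibitory synapses, fell by 1.08, Abi2, another WAVE subunit, by 1.04, and Nlgn1, its relative at excitatory synapses, by 0.74. The 2 that rose, Psen2 (0.31), a catalytic subunit of gamma-secretase, and Wasf2 (0.23), were named after their values were seen.

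With isolation, edgeR called 0 of these 21 in either region. In the VTA 10 had an unadjusted p below 0.05, as did 18.3% of all genes, and in the BLA there were 0, as against 1.99%. The median log2 fold change of the list in the VTA was 0.21, beside -0.0013 over all genes. The isolated VTA libraries were uneven in some of these genes: Ptk2b lay at 86.4 ± 116 CPM in them and 9.98 ± 1.92 CPM in the group-housed ones, and Wasf1 at 20.3 ± 15.3 and 7.31 ± 0.636 CPM (SD, n = 3 each). Their glutamatergic sums ran from 114 to 489 CPM, mostly from Lmo3 and Nrn1 except in library 3. The part of these markers in the list's values was not tested. Rac1, the small GTPase that activates the WAVE complex, lay at 216 CPM in isolated and 163 CPM in group-housed VTA libraries (log2 fold change 0.35, SE 0.08, adjusted p = 0.236). Nckap1, a WAVE subunit, had 0.33 (SE 0.10, adjusted p = 0.236). In the BLA Rac1 had -0.16 and Marcks -0.18. The difference of the responses was not called for any of the 21, although 12 had an unadjusted p below 0.05 (14.9% of all genes did), Rac1 (0.57) and Abi1 (0.44) first.

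The third list held 12 protocadherins outside the clusters, which are single genes with their own promoters. Between VTA and BLA 4 rose and 4 fell, with a median of 0.11, beside 24.1% higher and 23.7% lower over all genes. Pcdh11x rose by 0.65 (SE 0.07, adjusted p = 4.18e-06), from group means of 59.97 and 60.9 CPM in isolated and group-housed BLA to 100.2 and 90.4 CPM in isolated and group-housed VTA. Pcdh17 (0.34), Pcdh18 (0.40) and Pcdh12 (0.65) also rose. Pcdh1 fell by 2.04 (SE 0.22, adjusted p = 4.45e-05), Pcdh8 by 0.82, Pcdh10 by 0.73 and Pcdh7 by 0.33. With isolation, edgeR called 0 of the 12 in either region. At an unadjusted p below 0.05 there was 1 in the BLA, Pcdh18 (log2 fold change -0.37, SE 0.14, adjusted p of 1.00), and 0 in the VTA, where Pcdh9 (0.19) and Pcdh19 (0.24) had the smallest p.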

How the data were processed

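RNA from 12 libraries was analysed, 3 for each combination of region (with sex) and housing. The deposited files hold whole-number counts per gene. Per the submitters' processing notes they were made with cutadapt, TopHat2 and HTSeq on the mm10 build (versions, strand setting, annotation and read filters: not given in the sources used here). Stranded libraries were made, per the labels' protocols. Groups came from titles and treatment labels, sex from the design text.

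Counts of the per-sample tables were used. The series-wide table gave other counts at 2 entries, 0 of them members. After filtering with filterByExpr (count 10, total 15) and TMM scaling, edgeR 4.0.16 in R 4.3.3 ran its quasi-likelihood F test with robust dispersion, at a Benjamini-Hochberg adjusted p of 0.05 over all genes tested. Each region was fitted on its 6 libraries; the comparison of regions and the difference of responses on all 12. Levels are CPM with TMM factors over 12 libraries. Precision is limited by 3 libraries per group and, for the lowest members, by counting error. Alternatives were DESeq2 1.42.0, limma 3.58.1 voom with quality weights, other scalings and filters, a replicate block and leaving out libraries. The script was tested on simulated counts. Exon bases and positions came from GENCODE M21 for mm10, in which the name Pcdha11 is carried by 2 gene models. Figures were drawn with matplotlib 3.10.9.

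The members and lists were chosen with earlier results of these data known. Named with values were the C-types; up to 6 called members per direction and comparison by smallest p, filled to 4 where fewer passed; the highest and lowest member per cluster; the entries at the edge of the count rule; and up to 4 called genes per list, or else the 2 with the smallest p. Other called list genes, Ptk2b and Wasf1 in the VTA, Pcdhga1 and Pcdhgb1 between regions, and members whose groups did not overlap were named after their values were seen.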

Additional observations from a re-analysis of the deposited data

How the results depend on the processing

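Under the alternatives 228 comparison values stayed within 1 SD, or within 1.5 times for counts, and 23 did not; for single named members 549 values kept direction and call, 14 lost a call, 4 gained one and 5 changed sign. In the VTA, members called were 1 with DESeq2 and 0 to 1 with single libraries left out. In the difference of responses there was 1 with DESeq2. Over all genes, DESeq2 called 148 higher and 338 lower in the VTA, and 29 higher and 109 lower in the difference. Without isolated VTA library 2, where edgeR called 1 member, it called 370 genes higher and 830 lower. Between VTA and BLA, leaving out single libraries gave 30 to 34 calls. Library totals alone gave 12 calls, 6 higher and 6 lower, and the higher calls were 5 with limma voom, 6 with upper-quartile factors and 5 at an adjusted p of 0.1. Over all genes, 83.1% of calls were then higher with library totals alone, against 50.4% with TMM. That scaling also turned Pcdhac1 to 0.063 and Pcdhgc3 to 0.25 (log2, VTA against BLA), both below its all-gene median of 0.44. Log2 ratios of the alpha, beta and gamma sums under it were 0.33, 0.25 and 0.30 in the BLA, -0.050, -0.11 and -0.16 in the VTA and -0.50, 0.11 and -0.35 between regions. With upper-quartile factors the VTA ratios were -0.013, -0.075 and -0.12, and leaving out single libraries moved the beta ratio in the VTA between -0.017 and 0.090, the negative value without group-housed library 1. Pcdhac2 in the VTA turned to -0.031 without isolated library 3 and to -0.012 without isolated libraries 1 and 3, where Pcdhgc5 turned to -0.015. Per full exon length Pcdhac2 stood at 6.61 CPM per kb. The cause of the other moves was not tested.

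Groups share replicate numbers in the labels, and the numbers were not taken as pairs. Over the genes kept, deviations of same-numbered libraries correlated at 0.22, -0.05 and 0.02 in the BLA and -0.06, -0.02 and -0.03 in the VTA. Some BLA marker sums did follow the number. Striatal projection neuron sums were 2196, 1189 and 866 CPM in isolated libraries 1 to 3 and 1554, 1174 and 633 CPM in group-housed ones. Glutamatergic sums followed it only in part, at 803, 1404 and 1680 CPM and 1229, 1659 and 1603 CPM. Whether the numbers mark pairs cannot be told from these values. A replicate block left 0 members called in the BLA, 0 in the VTA, 0 in the difference and 32 between regions (29 lower, 3 higher). In the BLA it put 759 of 22110 genes at an unadjusted p below 0.05 by edgeR, against 439 without it. Counts of 6 to 29 for Pcdha4 and 8 to 120 for Pcdhb1 limit what can be said of them.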
